A study of Mus musculus with 9 samples.

Results

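Hnf4a, Lhx1, Pax2, Pax8, Ppara, Ppargc1a, Esrra and Esrrg are 8 genes that encode transcription factors of the nephron and regulators of energy metabolism. They were taken as a fixed list, and each has 1 row with a single gene symbol among the 22180 genes measured in mouse kidney, so all 8 are described here and no filter on low signal was applied. Total RNA from whole kidney was measured on 9 arrays, 3 in each of 3 groups. Sham mice had an operation without ligation 3 weeks earlier. CBDL mice had the common bile duct tied for 3 weeks, which keeps bile from leaving the liver. The third group, norUDCA-fed CBDL, received 5 days of feeding with norursodeoxycholic acid, a side-chain-shortened relative of the bile acid ursodeoxycholic acid, before the same 3 weeks of ligation. Whether feeding went on after surgery, and the strain, sex and age of the mice, are not given in the sources used here, and a norUDCA-fed sham group was not among the samples. Arrays are named by group and label number (sham_158, sham_159, sham_160, then CBDL_164, CBDL_165, CBDL_170, then norUDCA_CBDL_172, norUDCA_CBDL_175, norUDCA_CBDL_179).

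Proximal tubule cells reabsorb most of the filtrate and run on mitochondrial oxidation of fatty acids. HNF4A is a nuclear receptor needed for their maturation. PAX2 and PAX8 are paired-box factors and LHX1 is a LIM-homeodomain factor, and these 3 proteins act early in the forming kidney. PPARA is a nuclear receptor that senses fatty acids and switches on genes for their oxidation. PGC-1α, the product of Ppargc1a, is a coactivator that binds nuclear receptors, among them PPARA and the oestrogen-related receptors ERRα (Esrra) and ERRγ (Esrrg), which drive genes of the citrate cycle and respiratory chain.

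Values are log2 signals, so a difference of 1 is a 2-fold change. SD is taken over a group's 3 arrays, and every difference with its standard error (SE), 95% interval and adjusted p comes from limma (Benjamini-Hochberg over all 22180 genes, two-sided). Rose and fell are used for genes with an adjusted p under 0.05. Array medians lay between 5.7 and 5.79, and the second principal component put sham_159 at -34.5 and CBDL_165 at -22.9, away from the other 7 arrays at 3.42 to 12.03. The 28 measured proximal tubule markers had a mean signal of 11.52 to 11.61 on the sham arrays, and none of them had a mean below 5.2, the bound of the dimmest genes used here. Because replicates are not described in the labels, p-values cover only the spread between these samples. With 3 arrays against 3, no exact two-sided permutation p can be under 0.1.

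Of the RefSeq (GRCm38.p6) transcript starts of the 8 genes, 14 were available here, and the 250 bases upstream of each were searched on both strands. For Hnf4a, Ppara, Ppargc1a, Esrra and Esrrg these do not include the outermost start of the gene, so the window at that start was not searched. The array row of a gene does not tell its starts apart. The following 4 windows belong to 3 of the called members that hold a motif (Hnf4a, and Lhx1 and Ppargc1a, which share one) and to Pax8, whose mean was higher after ligation. Windows of Esrra and Esrrg, which were also called, hold searched motifs too and are not printed. Capitals mark GTTAAT (the core of an HNF1 site) in Hnf4a, TGACG (the core of a cAMP response element, CRE) in Lhx1 and Ppargc1a and GGGCGG (a GC box) in Pax8, each on either strand. The Hnf4a window lies inside the gene, 40344 bases after its outermost start, at chr2:163546905-163547154 (+). The Ppargc1a window also lies inside its gene, 548128 bases after the outermost start, at chr5:51567726-51567975 (-). The Lhx1 window, chr11:84525535-84525784 (-), and the Pax8 window, chr2:24475600-24475849 (-), lie at the outermost start.
Hnf4a: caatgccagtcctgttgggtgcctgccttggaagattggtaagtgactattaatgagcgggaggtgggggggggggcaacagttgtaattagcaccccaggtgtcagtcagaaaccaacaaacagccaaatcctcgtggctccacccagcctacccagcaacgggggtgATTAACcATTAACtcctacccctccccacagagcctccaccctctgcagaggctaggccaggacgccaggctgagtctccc
Lhx1: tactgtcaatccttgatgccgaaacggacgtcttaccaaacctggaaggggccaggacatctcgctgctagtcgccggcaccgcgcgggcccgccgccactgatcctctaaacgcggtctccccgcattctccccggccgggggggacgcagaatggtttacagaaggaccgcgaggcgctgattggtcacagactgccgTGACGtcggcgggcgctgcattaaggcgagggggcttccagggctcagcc
Ppargc1a: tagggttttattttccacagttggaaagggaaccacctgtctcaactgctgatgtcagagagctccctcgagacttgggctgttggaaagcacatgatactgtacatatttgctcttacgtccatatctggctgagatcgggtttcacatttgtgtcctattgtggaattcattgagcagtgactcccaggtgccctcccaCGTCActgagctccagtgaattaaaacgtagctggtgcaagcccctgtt
Pax8: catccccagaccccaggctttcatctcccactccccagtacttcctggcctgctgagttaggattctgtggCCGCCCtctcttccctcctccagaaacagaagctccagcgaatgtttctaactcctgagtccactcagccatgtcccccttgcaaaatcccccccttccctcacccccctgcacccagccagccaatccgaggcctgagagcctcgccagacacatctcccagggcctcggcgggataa

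The pair of GTTAAT matches in Hnf4a, both on the opposite strand, begin 81 and 74 bases upstream of the start, and 6.43% of all 32851 windows of this length hold that motif. TGACG was found in the windows of Lhx1, Ppargc1a and Ppara, and in 17.8% of all windows. The full palindromic CRE, TGACGTCA, was in none of the 14 member windows and in 1.55% of all. AGGTCA, the core recognised by many nuclear receptors, was in none of the 14 and in 14% of all, and the longer ERR element TCAAGGTCA, which contains it, was in none and in 0.387%. The HNF4A core CAAAGTCCA (0.384% of all windows) and the E-box CACGTG (6.02%) were in none of the 14 either. GGGCGG was in 8 of 14 windows, of 6 members, against 32.7% of all. Of the 14 windows, 10 had a GC content above the median of all windows (52.4%), and the part of GC content in this count was not tested. Ppara also held the NRF1 palindrome 31 to 22 bases upstream of its start (0.782% of all windows), and 1 Esrrg window held TATAAA (12.4%). A match describes letters in these windows, and an absent match says only that the letters are not there.

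After ligation 4 of the 8 members fell, none rose and 4 did not pass, where 11.5% of all genes fell, 10.3% rose and 21.8% were called in either direction. Lhx1, Hnf4a and Esrra were lower by 1.75-, 1.61- and 1.57-fold and Esrrg by 1.34-fold. The 3 CBDL arrays lay below the 3 sham arrays for 6 members, a pattern that 20% of all genes showed. The median difference of the 8 was -0.46, against -0.06 over all genes. An unadjusted p under 0.05 was reached by 7 members and by 33.3% of all genes. Both Pax genes had higher means in CBDL.

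**Figure D1:**
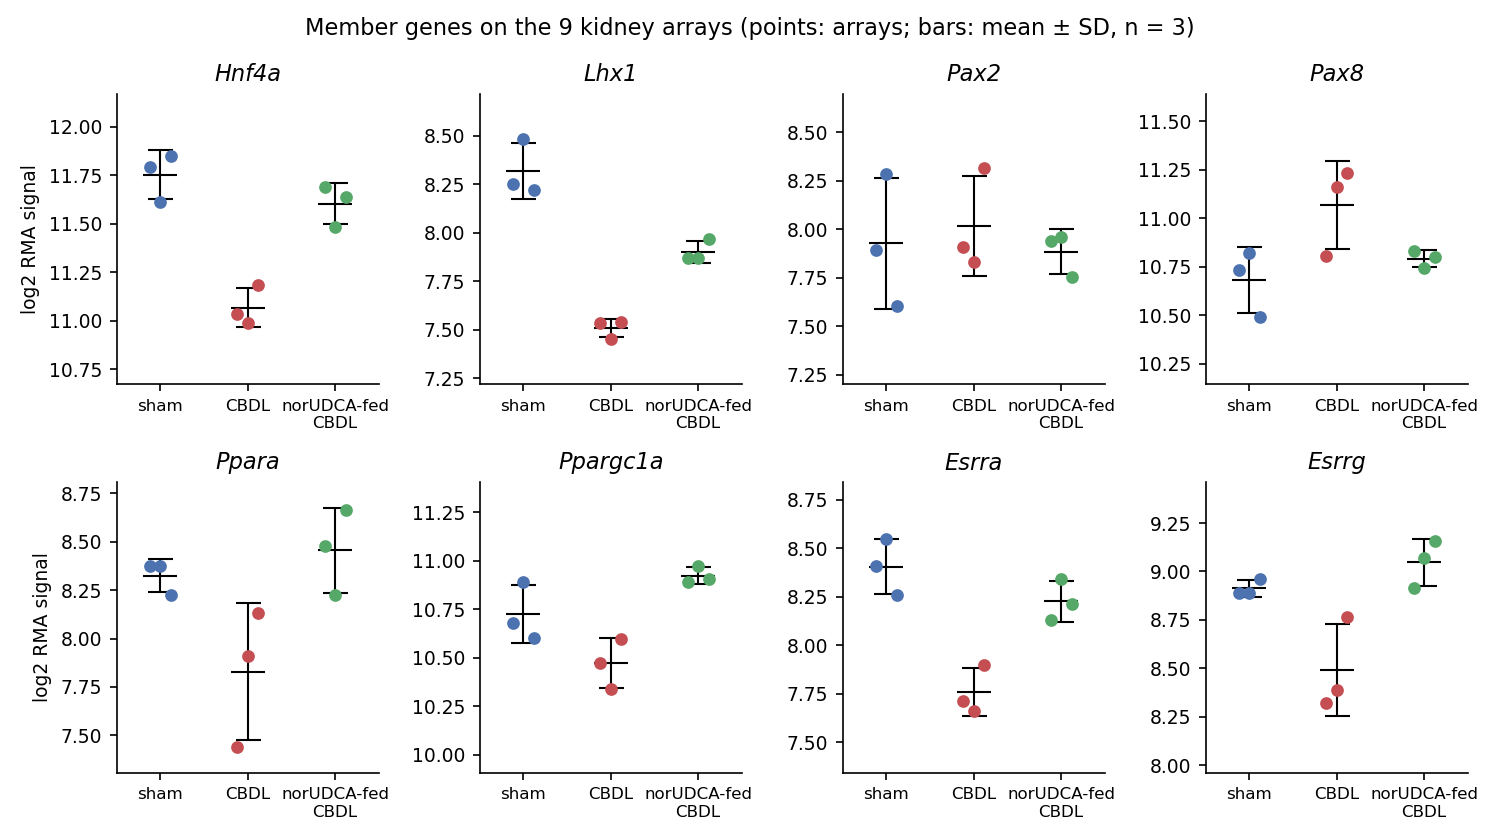
Log2 RMA signal (vertical axis, with the same span of 1.5 in every panel but a different start) of each member on the 9 arrays, by group; points are arrays, and bars are the mean and SD of 3 arrays. Hnf4a, Lhx1, Ppara, Ppargc1a, Esrra and Esrrg are lowest in CBDL, with CBDL arrays of Hnf4a at 10.99 to 11.18 against 11.61 to 11.85 in sham.

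Hnf4a was at 11.79, 11.61 and 11.85 on sham_158, sham_159 and sham_160, at 11.04, 10.99 and 11.18 on CBDL_164, CBDL_165 and CBDL_170, and at 11.69, 11.49 and 11.64 on norUDCA_CBDL_172, norUDCA_CBDL_175 and norUDCA_CBDL_179. All CBDL arrays were below every other array, while the norUDCA-fed arrays overlapped the sham arrays. CBDL minus sham was -0.68 (SE 0.11, adjusted p = 0.00144), and the gene fell without any 1 of the 9 arrays (adjusted p up to 0.00788).

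Lhx1 was at 8.25, 8.48 and 8.22 in sham, 7.53, 7.45 and 7.54 in CBDL and 7.87, 7.87 and 7.97 in norUDCA-fed CBDL, arrays in the order of their numbers. Its groups did not overlap at all, with the fed arrays between the others. The difference of CBDL from sham was -0.81 (SE 0.10, adjusted p = 0.000404, and up to 0.00243 with 1 array left out). A second row that carries both Lhx1 and the neighbouring transcript Lhx1os was at 7.14 to 7.36 in sham, 6.44 to 6.97 in CBDL and 6.63 to 6.94 in norUDCA-fed CBDL. There CBDL minus sham was -0.52 and did not pass (adjusted p = 0.0736 over all rows of the table).

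Pax8 was at 10.73, 10.82 and 10.49 in sham, 10.81, 11.16 and 11.23 in CBDL and 10.83, 10.74 and 10.80 in norUDCA-fed CBDL. CBDL_165 and CBDL_170 were the highest of the 9 arrays, and CBDL_164 lay within the range of the other groups. The difference of 0.39 (SE 0.13, 95% interval 0.09 to 0.68) did not pass (adjusted p = 0.067), though it did without CBDL_164 (0.52, adjusted p = 0.0214) and under 4 other settings, among them quantile normalization of the arrays (0.49, adjusted p = 0.0158). Pax2 ran from 7.61 to 8.28 in sham, 7.83 to 8.31 in CBDL and 7.75 to 7.96 in norUDCA-fed CBDL, so its groups overlapped throughout. Its difference after ligation was 0.09 (95% interval -0.32 to 0.50, adjusted p = 0.768) and turned negative without sham_160 or CBDL_170, with a lowest value of -0.07.

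Among the metabolic regulators, Esrra was at 8.41, 8.55 and 8.26 in sham, 7.71, 7.66 and 7.90 in CBDL and 8.13, 8.34 and 8.21 in norUDCA-fed CBDL. Each CBDL array was below all others, and sham and fed arrays overlapped. CBDL minus sham was -0.65 (SE 0.11, adjusted p = 0.00266, up to 0.0133 with 1 array left out). Its relative Esrrg was at 8.89, 8.89 and 8.96 in sham, 8.32, 8.39 and 8.77 in CBDL and 8.91, 9.07 and 9.16 in norUDCA-fed CBDL. CBDL_170 was the CBDL array nearest to the others. The fall of 0.42 (SE 0.13, adjusted p = 0.0426) was called without CBDL_170 (-0.56, adjusted p = 0.0072) and was lost when any other array was left out. Leaving out sham_158, sham_159, sham_160, CBDL_164, CBDL_165, norUDCA_CBDL_172, norUDCA_CBDL_175 or norUDCA_CBDL_179 gave an adjusted p of 0.0874, 0.0782, 0.11, 0.14, 0.124, 0.0545, 0.0615 or 0.057.

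Ppara was at 8.37, 8.37 and 8.22 in sham, 7.44, 7.91 and 8.13 in CBDL and 8.48, 8.22 and 8.66 in norUDCA-fed CBDL. All CBDL arrays were below the others, but they spread over 0.69, with CBDL_170 close to the lowest sham and fed arrays. CBDL minus sham was -0.50 (SE 0.18, 95% interval -0.89 to -0.10, adjusted p = 0.0746), and without CBDL_170 it was -0.65 (adjusted p = 0.0282). It passed under 4 of the 21 alternatives tried: array weights, centring on array medians, only genes above the median, and leaving out CBDL_170. Ppargc1a was at 10.68, 10.89 and 10.60 in sham, 10.48, 10.34 and 10.60 in CBDL and 10.89, 10.97 and 10.91 in norUDCA-fed CBDL. The highest CBDL array (10.599) all but reached the lowest sham array (10.605). Its difference of -0.25 (SE 0.11, 95% interval -0.50 to -0.01) did not pass (adjusted p = 0.136, and 0.1 to 0.329 with 1 array left out).

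**Figure D2:**
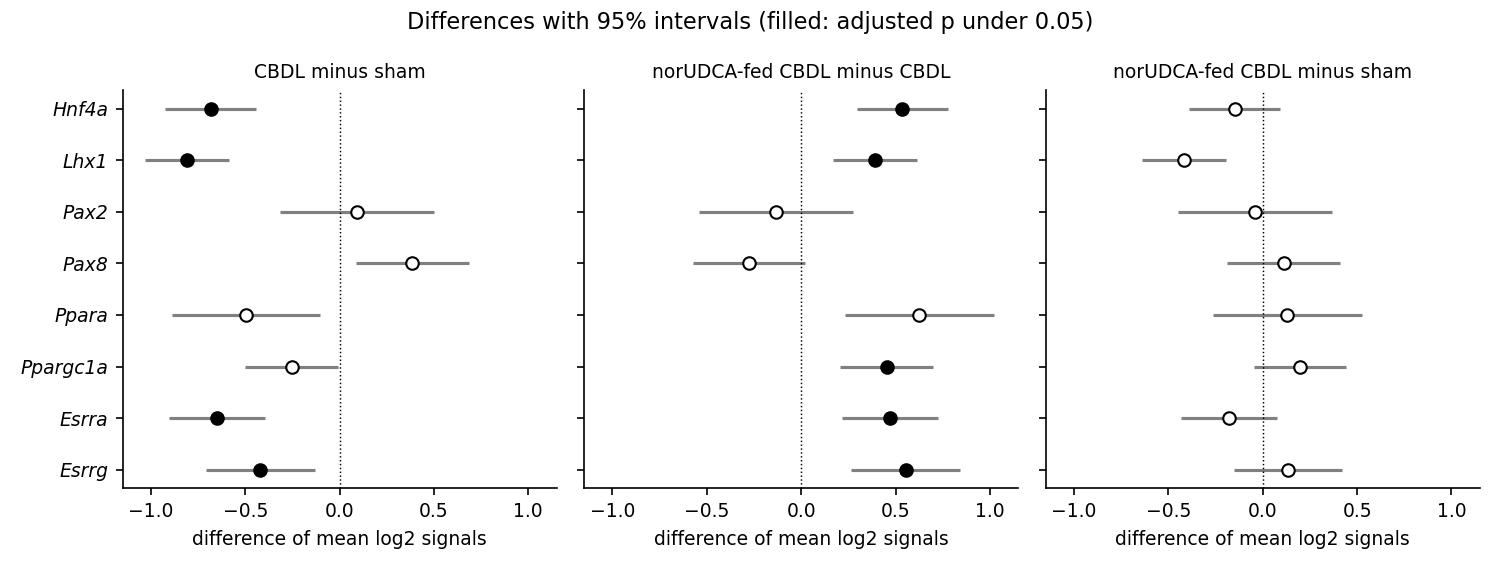
Difference of group means on the log2 scale (horizontal axis) with 95% intervals for each member in the 3 comparisons; filled points have an adjusted p under 0.05. After ligation 6 of 8 differences are below 0, in fed against unfed ligated mice 6 are above 0, and in fed ligated against sham mice none is filled.

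Fed and unfed ligated mice were compared next, both 3 weeks after ligation. In the fed mice 5 of the 8 members rose, none fell and 3 did not pass, where 3.61% of all genes rose, 3.2% fell and 6.8% were called in either direction. Esrrg was higher by 1.47-fold, Hnf4a by 1.45-fold, Esrra by 1.38-fold, Ppargc1a by 1.37-fold and Lhx1 by 1.31-fold. The fed arrays lay above the CBDL arrays for 6 members, which 11.6% of all genes showed. An unadjusted p under 0.05 was reached by 6 members and by 19.3% of all genes. The median of the 8 was 0.46, against -0.00336 over all genes. This comparison and the one above share the 3 CBDL arrays, so a low CBDL value enters both with opposite sign.

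The count of 5 changed with the arrays used. It was 5 without sham_159 or CBDL_170, 3 without sham_160, 1 without sham_158, and 0 without CBDL_164, CBDL_165, norUDCA_CBDL_172, norUDCA_CBDL_175 or norUDCA_CBDL_179. It was 1 without sham_159 and CBDL_165 together. The count over all genes moved too, from 1509 to between 278 and 2043 with 1 array left out. The 6 differences above 0 stayed above 0 in all 21 alternatives tried, at 0.36 (Lhx1) or more.

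Hnf4a rose by 0.54 (SE 0.11, 95% interval 0.30 to 0.78, adjusted p = 0.0194, and 0.0164 to 0.078 with 1 array left out). Lhx1 rose by 0.39 (SE 0.10, adjusted p = 0.0474, and 0.0264 to 0.155), and of the 9 arrays only sham_159 could be left out with the call kept. The second row, shared by Lhx1 and Lhx1os, differed by only 0.13 and did not pass (adjusted p = 0.85 over all rows). Its fed and unfed arrays overlapped. Esrra rose by 0.47 (SE 0.11, adjusted p = 0.0384, and 0.0283 to 0.141) and Esrrg by 0.55 (SE 0.13, adjusted p = 0.0333, and 0.00636 to 0.119). For Esrrg each fed array, at 8.91 or more, was above the highest CBDL array, at 8.77.

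The fed arrays of Ppargc1a were tight, from 10.89 to 10.97, and included the 2 highest of the 9. The coactivator gene rose by 0.45 over CBDL (SE 0.11, adjusted p = 0.0388, and 0.0268 to 0.132 with 1 array left out). Ppara had the largest difference of the 8, 0.63, and also a large error (SE 0.18, 95% interval 0.23 to 1.02), so it did not pass (adjusted p = 0.0671). Without CBDL_170 the Ppara value was 0.78 (adjusted p = 0.0257). Pax8 was lower than in CBDL by a value of -0.28 (95% interval -0.57 to 0.02, adjusted p = 0.305) and Pax2 by -0.13 (adjusted p = 0.794).

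**Figure D3:**
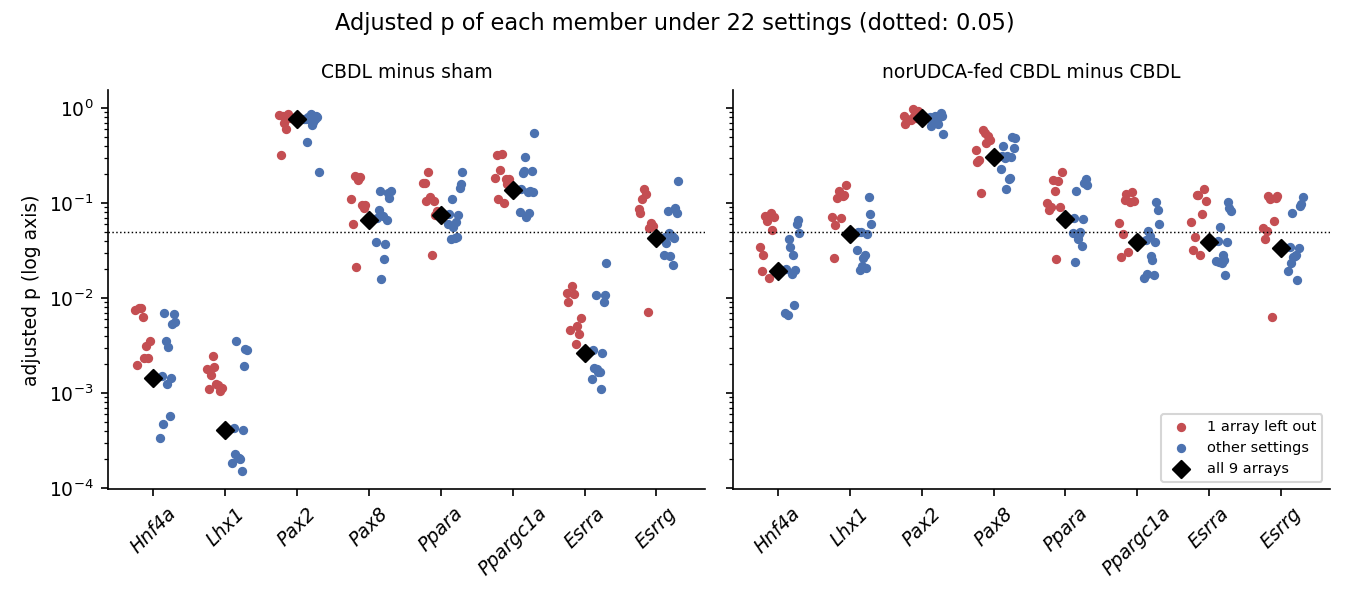
Adjusted p of each member (vertical log axis) with all 9 arrays (diamonds), with 1 array left out (red) and under the other settings (blue), for CBDL minus sham and norUDCA-fed CBDL minus CBDL; the dotted line is 0.05. Hnf4a, Lhx1 and Esrra stay under the line in all settings for ligation against sham, while in fed against unfed mice the points of each called member straddle it.

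In fed ligated against sham mice limma called 0 of the 8 members, where 3.18% of all genes were called (1.82% rose and 1.37% fell), and 1 had an unadjusted p under 0.05, as 16.3% of all genes did. That member was Lhx1, at -0.42 (SE 0.10, 95% interval -0.64 to -0.19, adjusted p = 0.0585). Its 3 fed arrays were all below the sham arrays, as for 13.5% of all genes, and the call was made under 6 alternatives, among them all 3 ways of rescaling the arrays. The row shared by Lhx1 and Lhx1os differed by -0.38 and did not pass (adjusted p = 0.381 over all rows). The other members are given with their 95% intervals. Hnf4a differed by -0.15 (-0.39 to 0.09), Esrra by -0.18 (-0.43 to 0.07), Esrrg by 0.13 (-0.15 to 0.42), Ppargc1a by 0.20 (-0.05 to 0.44), Ppara by 0.13 (-0.26 to 0.52), Pax8 by 0.11 (-0.19 to 0.41) and Pax2 by -0.04 (-0.45 to 0.37). A p that misses the threshold does not show that fed ligated and sham kidneys are alike for these genes.

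The gene lists that follow were written with earlier results of these data known, so their counts describe and do not support. Of 39 measured genes among other transcription factors of the nephron and urinary tract, 9 rose, 3 fell and 27 did not pass after ligation, with a median of 0.03. Sox9, a factor of tubule progenitors and repair, had a sham level of 5.85 ± 0.10 (SD, n = 3), a CBDL level of 9.07 ± 0.52 (SD, n = 3) and a fed CBDL level of 7.55 ± 0.19 (SD, n = 3). It rose by 3.22 after ligation (SE 0.22, adjusted p = 2.98e-05), fell by 1.52 in fed against unfed mice (SE 0.22, adjusted p = 0.00815) and stayed above sham by 1.69 (SE 0.22, adjusted p = 0.00549). Sox4 rose by 2.20 after ligation (adjusted p = 5.66e-05) and fell by 1.29 in fed mice (adjusted p = 0.00815). Both calls of Sox9 and Sox4 held without any 1 array (adjusted p up to 0.0457). The epithelial ETS factors Ehf at 1.41 and Elf3 at 1.24, Tfap2a at 0.99 and Hoxd11 at 0.90 also rose after ligation. Hnf4g, the closest relative of Hnf4a, fell by 1.13 (SE 0.25, adjusted p = 0.00849), from 7.92 to 9.01 on the sham arrays to 7.35 to 7.52 on the CBDL arrays, and Irx1 by 0.72. Without CBDL_165, 5 genes of the list fell after ligation. In fed against unfed mice 0 of the 39 rose by limma (3 were higher at an unadjusted p under 0.05) and 2 fell, and against sham 3 rose (Sox9, Ehf and Sox4) and 0 fell. Without sham_160, norUDCA_CBDL_172 or norUDCA_CBDL_179, 1 rose in that last comparison.

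Of 49 measured partners and relatives of the metabolic regulators, 1 rose, 15 fell and 33 did not pass after ligation (median -0.11), and 9 fell without sham_159 and CBDL_165 together. Those that fell included Rxra, the dimer partner of PPARA, at -0.64 (SE 0.10, adjusted p = 0.00112), and Ppargc1b, which encodes the related coactivator PGC-1β, at -0.73 (SE 0.10, adjusted p = 0.000833). Thyroid hormone receptor Thrb changed by -1.01, the AMP kinase subunit Prkaa2 by -0.80 and the mitochondrial deacetylase Sirt3 by -1.01. Mitochondrial genome maintenance was represented by Tfam, which packs and transcribes mitochondrial DNA, at -0.65 (SE 0.12, adjusted p = 0.00396) and Tfb1m at -0.65. The calls of these 7 genes held without any 1 array. The third PGC-1 family gene, Pprc1, was at 7.32 in sham with a difference of 0.12 (adjusted p = 0.613), Esrrb differed by -0.11 (adjusted p = 0.749) and Nrf1 by -0.08 (adjusted p = 0.669). Ppard, another PPAR, changed by -1.14 (adjusted p = 0.0239, and up to 0.0846 with 1 array left out).

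Pparg, the PPAR of fat cells, was the member of that list that rose, by 1.24 (SE 0.25, adjusted p = 0.00625), from 5.64 to 6.22 on the sham arrays to 6.68 to 7.65 on the CBDL arrays, and the fed arrays were at 5.7 to 6.26. It was lower in fed than in unfed mice by a value of -1.16 (adjusted p = 0.0268, up to 0.0961 with 1 array left out). Of 12 measured adipose markers, 3 rose, 1 fell and 8 did not pass after ligation, and in fed against unfed mice 0 rose, 1 fell and 11 did not pass. Their mean signal was 6.16 to 6.83 in sham, 6.81 to 7.99 in CBDL and 6.26 to 7.36 in norUDCA-fed CBDL, so the groups overlapped, and CBDL_170 was the highest array for both Pparg and this mean. The 3 markers that rose after ligation were Adipoq, Retn and Cidec, and Cox7a1 fell. With 1 array left out, Adipoq differed by 1.84 to 2.26 after ligation (adjusted p up to 0.00357). The call of Retn held in 4 of 9 such fits (adjusted p up to 0.122), and those of Cidec and Cox7a1 held in all 9. Adipoq was also the marker that fell in fed against unfed mice (-1.68 to -1.19, adjusted p 0.0147 to 0.0597 with 1 array left out). Ucp1, which marks brown fat, was at 3.88 to 5.7 over the 9 arrays. The part of fat cells in the Pparg result was not tested. In fed against unfed mice 4 genes of the partner list rose and 1 fell. Thrb rose by 0.72, Tfam by 0.56, Prkaa2 by 0.53 and Klf15 by 0.84 (adjusted p between 0.0195 and 0.031). Each of the 4 lost its call without at least 4 of the 9 arrays. The number of genes of the whole list that rose was 2 without sham_159 and CBDL_165 together, 0 without CBDL_164 or norUDCA_CBDL_172 and 1 without CBDL_165, norUDCA_CBDL_175 or norUDCA_CBDL_179. Against sham, Nr1i2, the xenobiotic receptor PXR, rose by 0.78 (adjusted p = 0.0314) and Tfb1m changed by -0.41 (adjusted p = 0.0463), and with 1 array left out these reached 0.141 and 0.176.

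**Figure D4:**
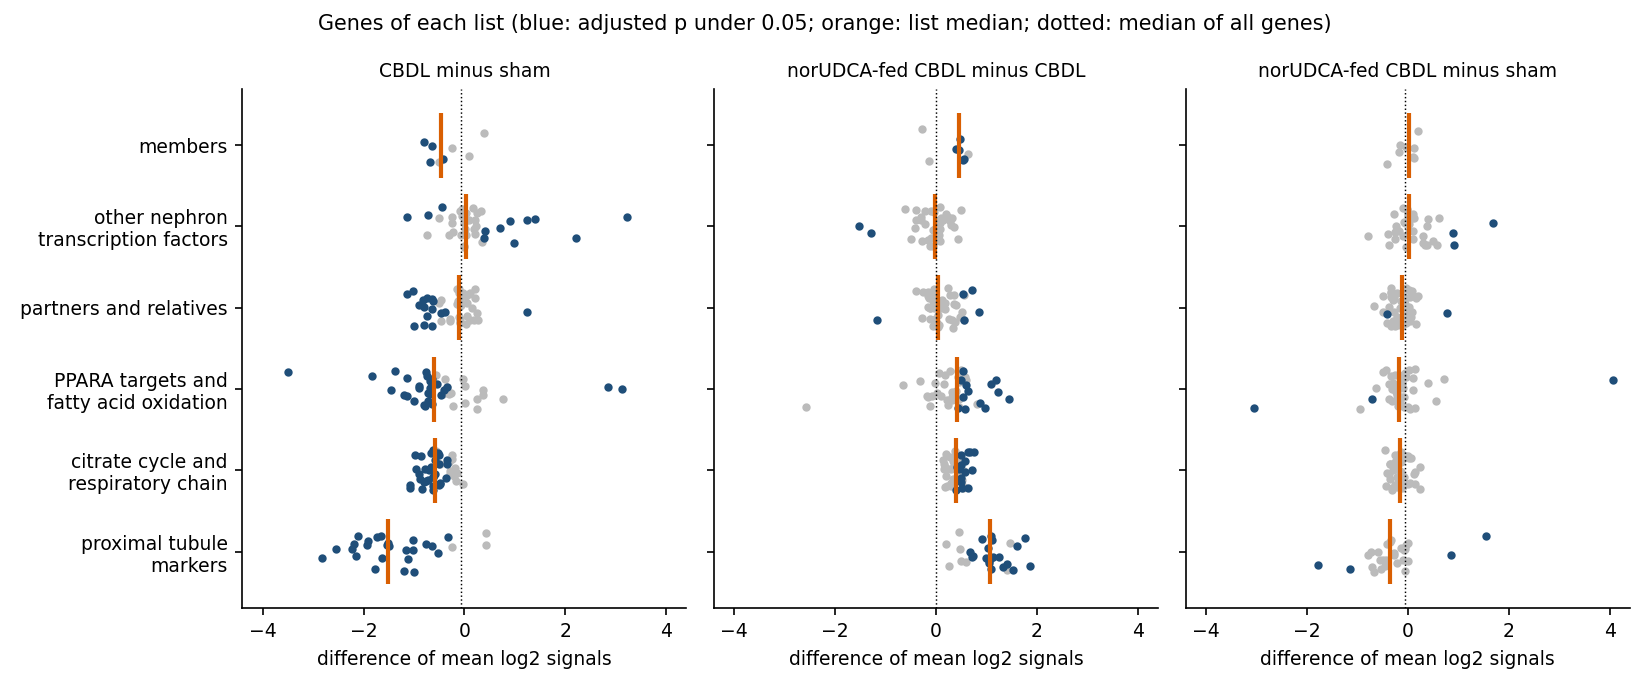
Difference of group means on the log2 scale (horizontal axis) of every measured gene of 6 lists in the 3 comparisons, blue where the adjusted p is under 0.05; orange lines are list medians and the dotted line is the median of all genes. Citrate cycle and respiratory chain genes lie below 0 after ligation (median -0.58; 45 of 46 under quantile normalization or centring on brighter genes) and above 0 in fed against unfed mice (median 0.39).

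Genes known as targets of PPARA or as enzymes of fatty acid oxidation fell more often than they rose after ligation. Of 44 measured, 2 rose, 26 fell and 16 did not pass, and the median was -0.60. The acyl-CoA dehydrogenase genes Acads at -1.14 and Acadm at -0.90 (SE 0.10, adjusted p = 0.000185), the peroxisomal thiolase gene Acaa1b at -1.19 and the fatty acid hydroxylase gene Cyp4a12a at -3.50 fell, all without any 1 array too. Acadm had a level of 12.61 ± 0.05 (SD, n = 3) in sham mice and of 11.71 ± 0.14 (SD, n = 3) after ligation. Cpt1a, which admits fatty acids to mitochondria, changed by -0.35 (adjusted p = 0.0421, up to 0.123 with 1 array left out), and Pdk4 differed by 0.77 (adjusted p = 0.133). The 2 that rose were Cidec, a lipid droplet gene that is also among the adipose markers, at 3.13 and Cyp4a14, another hydroxylase and PPARA target, at 2.84. Without CBDL_164, 4 rose.

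Cyp4a14 rose in all 3 comparisons. It was at 5.68 to 6.24 on the sham arrays, 8.77 to 8.95 on the CBDL arrays and 9.53 to 10.41 on the fed arrays, with no overlap between groups. In fed against unfed mice it rose by 1.22 (SE 0.22, adjusted p = 0.014), a call lost without CBDL_164 or norUDCA_CBDL_172 (adjusted p up to 0.0573). Against sham it rose by 4.06 (adjusted p = 6.14e-05), the largest difference of the list. Cyp4a12a stayed below sham in fed mice, at -3.04 (adjusted p = 0.00144).

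In fed against unfed mice 13 of the 44 rose, 0 fell and 31 did not pass, with a median of 0.42 (limma; 1 was lower at an unadjusted p under 0.05, and 1 fell without CBDL_165). Acaa1b rose by 1.09, Acot3 by 1.45 and Echs1 by 0.57, and these calls held without any 1 array (adjusted p up to 0.0499). Acot12 rose by 1.19 and Acadm by 0.53. The number that rose was 22 without CBDL_170, 7 without CBDL_165, 5 without norUDCA_CBDL_172 or norUDCA_CBDL_179, 4 without norUDCA_CBDL_175 and 3 without CBDL_164. Against sham 1 rose and 2 fell (Cyp4a12a and Acads), with a median of -0.17. Without CBDL_170, 2 rose and 4 fell, and without norUDCA_CBDL_172, 1 fell.

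Of 46 measured genes of the citrate cycle and respiratory chain, a group driven by ERR and PGC-1 proteins, 0 rose by limma (0 also at an unadjusted p under 0.05), 33 fell and 13 did not pass after ligation, and all 46 differences were below 0 (45 when arrays were quantile normalized again or centred on their brighter genes). The median was -0.58. The Rieske subunit gene Uqcrfs1 and the succinate-CoA ligase gene Suclg1 both changed by -1.08, Cyc1, cytochrome c1, by -0.90, Ndufs1, the largest subunit of complex I, by -0.97, Sdhb, a subunit of succinate dehydrogenase, by -0.79 and Cox7a2 by -0.72, each with an adjusted p of at most 0.00531 with 1 array left out. Cycs, cytochrome c, changed by -0.86 (adjusted p = 0.00852). Idh3a, a subunit of isocitrate dehydrogenase, differed by -0.48 (adjusted p = 0.0513).

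All 46 were higher in fed than in unfed ligated mice, by 0.13 to 0.76, and 15 of them rose while 0 fell by limma. The median was 0.39, and the signs were the same under the 3 rescalings. Suclg1 rose by 0.76 (adjusted p = 0.0121), Cyc1 by 0.66, Sdhb by 0.57, Ndufs1 by 0.70, Uqcrfs1 by 0.64 and Ndufb5 by 0.56. Suclg1 and Cyc1 lost their calls without norUDCA_CBDL_175 (adjusted p = 0.0581 and 0.0595). The count of 15 was 8 without sham_160, 7 without sham_158, 4 without norUDCA_CBDL_172, 3 without CBDL_165 or norUDCA_CBDL_179, 2 without CBDL_164 and 0 without norUDCA_CBDL_175. Against sham limma called 0 of the 46 (9 had an unadjusted p under 0.05), with a median of -0.16, and Ndufv1 had the lowest adjusted p, 0.0794.

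In whole kidney RNA, fewer cells of a type and less RNA per cell cannot be told apart, and proximal tubule markers moved with these genes. Of 28 measured, 0 rose by limma (1 was higher at an unadjusted p under 0.05, 1 rose without CBDL_165 and 2 without sham_159 and CBDL_165) and 25 fell after ligation with a median of -1.51, larger than the -0.68 of Hnf4a. Their mean signal was 11.52 to 11.61 in sham, 9.77 to 10.72 in CBDL and 11.21 to 11.32 in norUDCA-fed CBDL. The phosphate transporter gene Slc34a3 changed by -2.82, the urate transporter gene Slc22a12 by -2.11, G6pc, glucose-6-phosphatase, by -1.52 and Keg1 by -1.65. In fed against unfed mice 20 of the 28 rose with a median of 1.07, a count that lay between 3 (without CBDL_164) and 8 (without norUDCA_CBDL_172) when CBDL_164 or 1 of the 3 fed arrays was left out (4 without norUDCA_CBDL_175 and 6 without norUDCA_CBDL_179). Markers of thick limb and distal tubule had medians of -0.22 and 0.39 in the same comparisons and collecting duct markers of -0.31 and 0.57. Macrophage markers, such as Csf1r and Ctss, had a mean signal of 6.65 to 6.94 in sham, 8.21 to 8.84 in CBDL and 7.59 to 7.69 in norUDCA-fed CBDL. The part of cell makeup in the members' results was not tested.

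The other marker lists were mixed after ligation. Of 8 podocyte genes 2 rose and 2 fell, among them Cd2ap at 0.66 and Clic5 at -0.52, and their mean signal was 8.27 to 8.4 in sham and 8.49 to 8.53 in CBDL. Of 12 endothelial genes 1 fell, with means of 9.3 to 9.5 and 9.16 to 9.51. Of 12 hepatocyte genes 1 rose and 3 fell, with Fgb at 2.48 (named after its value was seen), Ttr at -2.07 and Apob at -0.97, and means of 6.21 to 6.36 and 5.89 to 6.25. The call of Fgb held in 4 of 9 fits with 1 array left out (adjusted p up to 0.0843). Of 7 urothelial genes 1 rose, with means of 5.78 to 6.55 and 6.67 to 7.45. Most neutrophil markers (8 of 12) and adrenal markers (7 of 8) had means below 5.2, as did 5 of 13 lymphocyte markers.

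Genes with a profile close to a called member were found by the root mean square difference of signals over the 9 arrays, each gene taken about its own mean. For Hnf4a they were Sfxn5, a mitochondrial carrier gene, at 0.0609, Rufy3 at 0.0805 and Dennd1a at 0.0813. For Lhx1 all 3 encode parts of the respiratory chain or ATP synthase, Ndufa13 at 0.0638, Atp5k at 0.0641 and Cox7a2 at 0.0645. The closest to Esrra were Bcar3 at 0.0576, Stard7 at 0.059 and Ptcd3, a mitochondrial RNA-binding protein gene, at 0.0622. Esrrg had Lyrm1 at 0.0556, Gstt3, a glutathione transferase gene, at 0.0751 and Wdr72 at 0.0781, and Ppargc1a had Usp2, a deubiquitinase gene, at 0.0632, Tnfrsf21 at 0.0689 and Tek at 0.072. The members themselves deviated from their means by 0.208 (Ppargc1a) to 0.339 (Lhx1) on the same measure. Between 2885 (Hnf4a) and 8266 (Ppargc1a) genes lay within 0.25 of a called member. That cut is wider than the distances above and than the 0.208 of Ppargc1a. These counts therefore do not tell how common the closeness of the named genes is, and those were picked as the nearest.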

How the data were processed

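The authors deposited log2 signals for 41345 rows of a whole-transcript array, made with RMA in Partek 6.6, per the submitters' processing notes. Per the labels' protocols, RNA came from TRIzol extraction and was labelled with the WT PLUS reagents of Affymetrix. Row coordinates, filters and batches: not given in the sources used here. Values were used without rescaling. Of the rows, 23521 carry 1 symbol, 1814 several and 16010 none, and the brightest single-symbol row was taken per gene, which left 1341 rows unused. Of 22180 genes, 21994 had an identifier in the RefSeq table.

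limma 3.58.1 in R 4.3.3 was fitted with 1 mean per group over all 9 arrays (6 residual and 3.77 prior degrees of freedom, median SE 0.14) and was checked on simulated data. The number of arrays limits the precision. No replicate number occurs in more than 1 group. The members, lists and tests were chosen with earlier results of these data known. Named genes are the 8 members, set relatives, up to 6 genes of lowest p per pathway list, up to 4 of the proximal tubule and adipose lists, the 2 brightest of other marker lists, and the 3 nearest profiles of each called member. Ucp1 and Fgb were chosen after their values were seen. Listed genes without a single-symbol row were not analysed here.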

Additional observations from a re-analysis of the deposited data

How the results depend on the processing

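Each of 24 member differences (8 genes, 3 comparisons) was recomputed under 21 alternatives, which gave 504 values: 414 kept direction and side of the threshold, 61 lost a call, 22 gained one and 7 turned, all of Pax2, which was never called. With 1 array left out Pax2 ran from -0.0693 to 0.269 in CBDL minus sham, from -0.226 to 0.015 in norUDCA-fed CBDL minus CBDL and from -0.202 to 0.136 in norUDCA-fed CBDL minus sham, and the last was 0.0415 with array weights and 0.136 without sham_159 and CBDL_165. In fed against unfed ligated mice the members called numbered 2 (912 of all genes) with only the 6 arrays compared, 0 (471) with every row tested by itself, 0 (25) without moderation and 1 (749) without sham_159 and CBDL_165. They numbered 6 with an intensity trend (1852), array weights (2123) or only genes above the median (2106). Quantile normalization (1635), centring on array medians (1619) and centring on brighter genes (1655) also gave 6. With 1 array left out they numbered 0 to 5 (278 to 2043). In fed ligated against sham mice 1 member, Lhx1, was called with an intensity trend, array weights, quantile normalization, centring on array medians, centring on brighter genes, or only genes above the median. All genes called there numbered 1638 with array weights, 317 by row, 169 without moderation and 156 to 822 with 1 array left out. In CBDL against sham 3 to 6 members and 3657 to 5363 of all genes were called, with the 6 where only genes above the median were tested (5078 of 12940 called). No paired analysis was possible because the groups share no replicate number. Means of 3 arrays limit precision, and depth is not defined for arrays.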
